A study of Mus musculus with 18 samples.

Results

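Genes of astrocytes and of Bergmann glia were followed in purified granule neuron progenitors (GNPs) and medulloblastomas (MBs) of mice with and without Norrin, the secreted ligand encoded by Ndp. The list held 33 genes known as markers of astrocytes or Bergmann glia. Of these, 32 had a probe on the Illumina MouseWG-6 v2 array, out of 19057 genes with a probe of a single symbol, and Clu was not analysed here. Expression was measured on 18 arrays, 16 of GNPs taken at postnatal day 6 and 2 of tumours. The GNPs came from wild-type, Ptch+/-, NdpKO and NdpKO;Ptch+/- mice, with 4 arrays of each genotype. Ptch+/- mice lack 1 working copy of Ptch, which encodes the Sonic hedgehog receptor and restrains the pathway. NdpKO mice carry an Ndp locus disrupted by a cassette with lacZ, and since Ndp lies on the X chromosome the NdpKO and compound mutants were males, whereas the other mice were, per the study's methods, of both sexes. The strain was labelled C57Bl/6 for wild-type and Ptch+/- mice and mixed for NdpKO mice, and 3 of the 4 NdpKO;Ptch+/- arrays had no strain label. The study's methods describe controls of the same breeding cohort as the compound mutants, but by these labels strain and genotype cannot be told apart in the NdpKO comparisons. The tumours came from 1 Ptch+/- and 1 NdpKO;Ptch+/- mouse, described as symptomatic although their age label also reads day 6.

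Bergmann glia are astrocytes of the cerebellum whose cell bodies lie among the Purkinje cells and whose fibres reach the pial surface. GNPs divide at the outer ends of these fibres, and their daughters migrate inwards along them. Astrocytes clear glutamate from synapses, couple to each other through gap junctions and enclose blood vessels with endfeet, next to the endothelial cells on which Norrin acts through its receptor Fzd4.

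A level is the log2 intensity that the authors deposited, and a level under 5 was treated as near background, since the median probe of every array lay at 4.13 and 76.0% of all probes had a mean under 5. By this measure 22 of the 32 genes had a mean of 5 or more. Another 7 lay under 5 on every array, namely Fabp7, Glul, Mlc1, S100b, Fgfr3, Mt2 and Hepacam, so that nothing can be said of their levels here beyond that. Slc6a11 passed 5 only in the tumours, Pla2g7 only on wild-type array 3, and Sparcl1 only on wild-type arrays 1 and 3. The preparations were made by a Percoll gradient and pre-plating, which enriches GNPs, and they contained transcripts of other cells. Of 13 measured genes of the granule neuron lineage 10 had a mean of 5 or more, with Zic1 at a mean of 12.87 and Rbfox3 at 12.56, whereas the probes for Atoh1, Pax6 and Tubb3 lay near background. In bulk RNA of this kind, fewer cells of a type and less RNA per cell cannot be told apart.

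Across the list, the wild-type GNPs stood highest and the Ptch+/- and NdpKO GNPs lowest, with the compound mutants (NdpKO;Ptch+/-) in between. The summed linear intensity of the 32 genes was 32847, 27908, 26617 and 27192 in the wild-type arrays, 17273, 19683, 20037 and 19429 in those of Ptch+/-, 16257, 19368, 20470 and 24989 in those of NdpKO and 22738, 24355, 22654 and 27296 in those of NdpKO;Ptch+/- GNPs. All wild-type arrays lay above all Ptch+/- and NdpKO arrays, whereas NdpKO;Ptch+/- replicate 4 reached into the wild-type range. Such a sum gives most weight to the brightest genes, here Slc1a3, Sox9, Cst3 and Mt1, with wild-type means of 12.82, 12.09, 12.01 and 11.76. The median difference of the 32 genes from wild type was -0.37 on the log2 scale for Ptch+/- GNPs, -0.43 for NdpKO and -0.20 for the compound mutants. Over all 45281 probes it was 0.00 in each of these, and the 3 comparisons share the same 4 wild-type arrays.

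**Figure D1:**
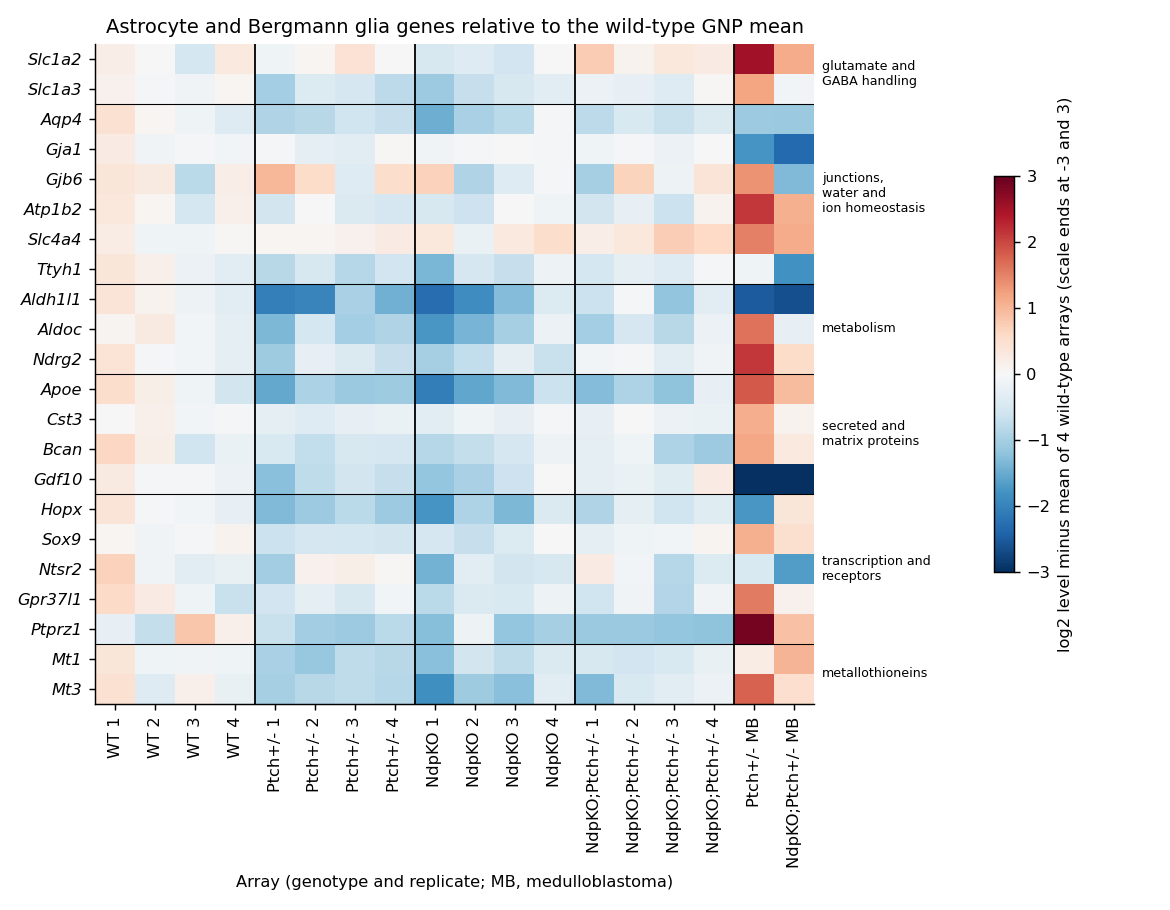
Level of the 22 genes with a mean of 5 or more, as the log2 difference of each of the 18 arrays (columns) from the mean of the 4 wild-type GNP arrays, grouped by function (rows). Blue marks lower and red higher levels; blue fills most of the Ptch+/- and the first 3 NdpKO columns, apart from Gjb6, Slc4a4 and a few others, NdpKO 4 is pale, and the tumours hold both the deepest red and the deepest blue.

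Within a genotype, many of the genes shared their highest and lowest arrays. NdpKO replicate 4 was the highest of its group for 20 of the 32 genes and NdpKO replicate 1 the lowest for 21. Over all probes these arrays were highest and lowest for 25.5% and 23.3%, and over the probes with a mean of 5 or more for 29.9% and 20.1%. Wild-type replicate 1 was the highest of its group for 21 genes and Ptch+/- replicate 1 the lowest for 17. Their shares were 24.9% and 23.3% of all probes, and 22.8% and 22.9% of those with a mean of 5 or more. The summed intensity of the endothelial list was 12795, 8208, 5870 and 6249 in wild-type, 5240, 4026, 5987 and 5814 in Ptch+/-, 3782, 5194, 4188 and 7125 in NdpKO and 4192, 7339, 6008 and 9003 in compound mutant GNPs. In every genotype the same array was thus the highest for the summed intensity of both lists. These were wild-type replicate 1, Ptch+/- replicate 3, NdpKO replicate 4 and NdpKO;Ptch+/- replicate 4. Lists of other cell types did not share all of them. For microglia and leukocytes the highest replicates were wild-type 4, Ptch+/- 4, NdpKO 4 and NdpKO;Ptch+/- 2. For the oligodendrocyte lineage they were wild-type 1, Ptch+/- 1, NdpKO 4 and NdpKO;Ptch+/- 2. For Purkinje and GABAergic neurons they were wild-type 4, Ptch+/- 2, NdpKO 4 and NdpKO;Ptch+/- 2. Whether the share of non-neuronal cells in a preparation had a part in the differences below was not tested.

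**Figure D2:**
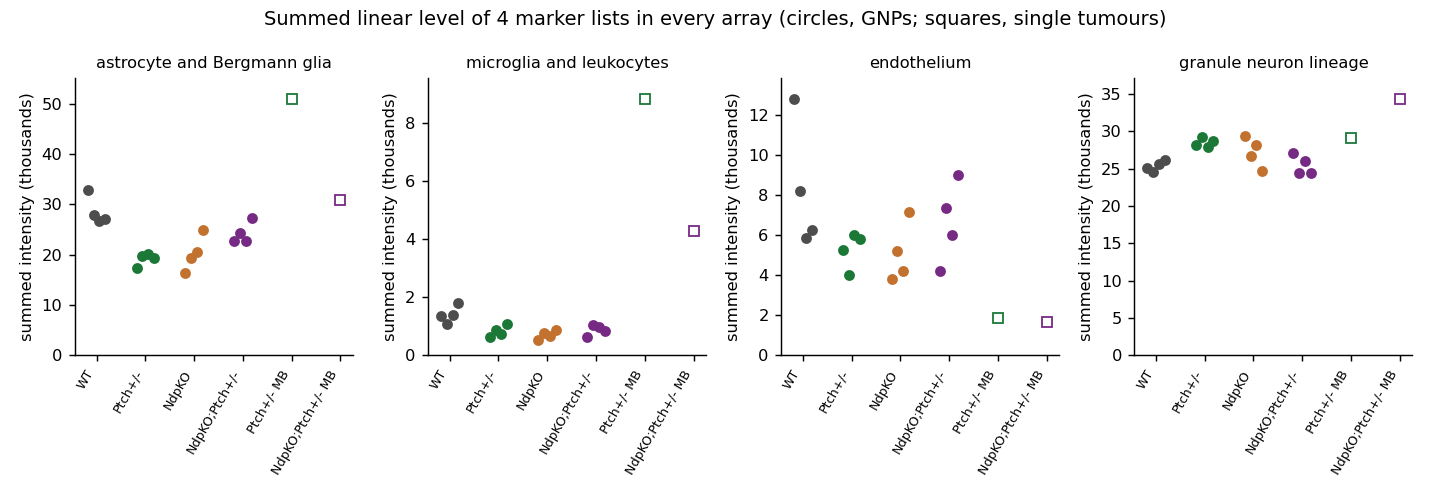
Summed linear intensity of the marker lists of astrocytes and Bergmann glia, of microglia and leukocytes, of endothelium and of the granule neuron lineage in every array, by genotype. Circles are GNP arrays and open squares single tumours, and each axis starts at 0; the glial sums of wild-type GNPs lie above all Ptch+/- and NdpKO arrays, the endothelial sums overlap between the genotypes, and the tumours stand far above the GNPs for microglia and below them for endothelium.

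Ptch+/- GNPs, compared with wild type, address what differed in these genes with the loss of 1 Ptch copy. Of the 32 genes 25 had a negative difference, against 48.5% of all probes. In limma, with Benjamini-Hochberg adjustment over all probes, 2 genes were called at an adjusted p below 0.05, Sox9 and Mt1, both lower. Over all probes 1.09% were called in either direction and 0.499% lower. At an unadjusted p below 0.05, 17 genes were lower and 0 higher. The share of all probes at this unadjusted threshold was not counted, so here and below such counts cannot be set against the whole array. The 4 Ptch+/- arrays all lay below the 4 wild-type arrays for 13 genes of the 32, as they did for 4.48% of all probes and 10.3% of the probes with a mean of 5 or more.

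Sox9, a transcription factor needed for the switch of neural progenitors to glia and kept on in astrocytes, was measured at 12.16, 11.97, 12.03 and 12.19 in wild-type, 11.45, 11.58, 11.57 and 11.54 in Ptch+/-, 11.59, 11.39, 11.68 and 12.08 in NdpKO and 11.82, 11.96, 11.998 and 12.17 in compound mutant GNPs. No Ptch+/- array reached the wild-type range, 3 of the 4 NdpKO arrays lay below it, and the compound mutants overlapped it. In Ptch+/- GNPs Sox9 was 1.47-fold lower than in wild type, a log2 difference of -0.55 ± 0.12 (SE, adjusted p = 0.0477). A second Sox9 probe, with a mean of 7.56, was also lower, with a difference of -0.85 (adjusted p = 0.0111). Neither the main probe's call nor that of Mt1 was stable: without Ptch+/- replicate 1, 2, 3 or 4 or wild-type replicate 1, 2 or 3 neither gene was called, and without wild-type replicate 4 only Mt1 was.

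Hopx, a homeodomain protein found in Bergmann glia, was measured at 9.66, 9.22, 9.19 and 9.01 in wild-type, 7.94, 8.17, 8.47 and 8.18 in Ptch+/-, 7.51, 8.34, 7.92 and 8.84 in NdpKO and 8.36, 8.97, 8.68 and 8.91 in compound mutant GNPs. The difference of -1.08 ± 0.25 in Ptch+/- GNPs (SE, adjusted p = 0.0615) was 2.12-fold and did not pass the threshold, although no Ptch+/- array overlapped wild type. Receptor genes of the list gave smaller differences than Hopx. These were -0.18 for the neurotensin receptor gene Ntsr2 and -0.36 for Gpr37l1, which encodes an orphan receptor of astrocytes. The receptor phosphatase gene Ptprz1, whose Ptch+/- mean lay under 5, gave -0.90.

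Among the genes of glutamate and GABA handling, Slc1a3, which encodes the glutamate transporter GLAST of Bergmann glia, was measured at 12.95, 12.75, 12.71 and 12.87 in wild-type, 11.81, 12.42, 12.32 and 12.02 in Ptch+/-, 11.73, 12.14, 12.35 and 12.51 in NdpKO and 12.64, 12.58, 12.44 and 12.86 in compound mutant GNPs. Every Ptch+/- and NdpKO array lay below every wild-type array, and the compound mutants overlapped wild type. The difference in Ptch+/- GNPs was -0.68 ± 0.17 (SE, adjusted p = 0.0761). Slc1a2, which encodes the related transporter GLT-1, was measured at 5.91, 5.72, 5.18 and 5.99 in wild-type, 5.57, 5.77, 6.13 and 5.68 in Ptch+/-, 5.22, 5.31, 5.13 and 5.68 in NdpKO and 6.46, 5.80, 6.02 and 5.95 in compound mutant GNPs. These groups overlapped with wild type throughout, and the difference of 0.09 ± 0.20 (SE, adjusted p = 0.922) in Ptch+/- GNPs was smaller than the SD of the wild-type arrays. Glul, which encodes glutamine synthetase, lay between 4.11 and 4.17 on all arrays.

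In metabolism, Aldh1l1 gave the largest difference of the list. It encodes a folate enzyme widely used to mark astrocytes and was measured at 7.26, 6.96, 6.70 and 6.53 in wild-type, 4.81, 4.87, 5.89 and 5.43 in Ptch+/-, 4.57, 5.01, 5.56 and 6.44 in NdpKO and 6.22, 6.82, 5.68 and 6.55 in compound mutant GNPs. Its Ptch+/- arrays straddled level 5 and lay below all wild-type arrays. The difference of -1.61 ± 0.38 in Ptch+/- GNPs, 3.05-fold, did not pass (SE, adjusted p = 0.0682). The brain aldolase gene Aldoc differed by -0.95 ± 0.30 and Ndrg2, a gene of mature astrocytes, by -0.60 ± 0.19 (SE), and neither was called (adjusted p = 0.165 and 0.167). Fabp7, the brain lipid-binding protein of radial and Bergmann glia, lay between 4.19 and 4.92, within background on every array.

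Of the secreted and matrix proteins, Apoe, the lipid carrier of the brain, was measured at 10.03, 9.69, 9.37 and 8.95 in wild-type, 7.98, 8.57, 8.40 and 8.46 in Ptch+/-, 7.43, 7.96, 8.19 and 8.86 in NdpKO and 8.21, 8.59, 8.30 and 9.27 in compound mutant GNPs. Gdf10, a growth factor of the TGF-beta family that marks Bergmann glia, was measured at 10.63, 10.31, 10.32 and 10.20 in wild-type, 9.11, 9.61, 9.83 and 9.68 in Ptch+/-, 9.21, 9.40, 9.75 and 10.37 in NdpKO and 10.07, 10.18, 9.997 and 10.60 in compound mutant GNPs. For both, all Ptch+/- arrays lay below all wild-type arrays. The differences of -1.16 ± 0.32 for Apoe and -0.81 ± 0.23 for Gdf10 (SE, adjusted p = 0.108 and 0.127) were not called. Cst3, which encodes the protease inhibitor cystatin C, was measured at 12.02, 12.15, 11.91 and 11.94 in wild-type, 11.72, 11.63, 11.77 and 11.80 in Ptch+/-, 11.66, 11.88, 11.75 and 11.95 in NdpKO and 11.76, 12.0002, 11.83 and 11.80 in compound mutant GNPs, a difference of -0.28 ± 0.07 in Ptch+/- GNPs (SE, adjusted p = 0.0963). The Cst3 arrays of these genotypes did not overlap either, though the shift was the smallest of the 13 genes without overlap. For Bcan, which encodes the matrix proteoglycan brevican, the levels were 8.50, 8.05, 7.28 and 7.66 in wild-type, 7.42, 7.14, 7.39 and 7.36 in Ptch+/-, 7.01, 7.15, 7.36 and 7.71 in NdpKO and 7.61, 7.74, 6.95 and 6.78 in compound mutant GNPs. Ptch+/- and wild-type arrays overlapped, with a difference of -0.55 ± 0.27 (SE, adjusted p = 0.421).

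Genes of junctions, water and ions did not form one pattern. Aqp4, the water channel of astrocyte endfeet, was measured at 10.72, 10.33, 10.16 and 9.89 in wild-type, 9.37, 9.44, 9.69 and 9.58 in Ptch+/-, 8.80, 9.31, 9.47 and 10.22 in NdpKO and 9.49, 9.81, 9.60 and 9.84 in compound mutant GNPs. It was lower on every Ptch+/- array than on any wild-type array, with a difference of -0.76 ± 0.25 (SE, adjusted p = 0.181). Gja1, which encodes the main gap junction protein of astrocytes, was measured at 11.37, 11.01, 11.06 and 11.03 in wild-type, 11.06, 10.86, 10.79 and 11.16 in Ptch+/-, 11.01, 11.09, 11.10 and 11.05 in NdpKO and 10.99, 11.07, 10.94 and 11.13 in compound mutant GNPs. Apart from the high wild-type replicate 1 these arrays shared 1 range, and the difference was -0.15 ± 0.09 (SE, adjusted p = 0.543). Gjb6, for another astrocyte connexin, was measured at 6.01, 5.92, 4.83 and 5.84 in wild-type, 6.65, 6.21, 5.26 and 6.18 in Ptch+/-, 6.35, 4.75, 5.26 and 5.59 in NdpKO and 4.64, 6.31, 5.49 and 6.04 in compound mutant GNPs. Its arrays scattered from under level 5 or just above it to over 6 in most groups, and its 0.42 ± 0.44 (SE, adjusted p = 0.788) was the highest difference of the list.

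The bicarbonate transporter gene Slc4a4 was measured at 7.74, 7.40, 7.39 and 7.56 in wild-type, 7.58, 7.59, 7.65 and 7.78 in Ptch+/-, 7.84, 7.33, 7.81 and 8.05 in NdpKO and 7.72, 7.83, 8.26 and 8.12 in compound mutant GNPs. It overlapped between Ptch+/- and wild-type GNPs, with a difference of 0.12 ± 0.15 (SE, adjusted p = 0.830), and its 2 highest GNP levels were in the compound mutants. Atp1b2, for a beta subunit of the sodium pump, was measured at 8.12, 7.87, 7.26 and 7.95 in wild-type, 7.24, 7.80, 7.37 and 7.29 in Ptch+/-, 7.31, 7.17, 7.81 and 7.68 in NdpKO and 7.25, 7.55, 7.16 and 7.91 in compound mutant GNPs. With the wild-type replicate 3 among the mutant arrays, its difference of -0.38 ± 0.22 (SE, adjusted p = 0.529) was not called. Ttyh1, of the tweety family of membrane proteins, did not overlap between the genotypes and differed by -0.69 ± 0.23 (SE, adjusted p = 0.187).

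Metallothioneins are small proteins that bind zinc and copper. Mt1 is found in astrocytes and many other cells, and Mt3 mainly in the brain. Mt1 was measured at 12.13, 11.63, 11.65 and 11.64 in wild-type, 10.79, 10.62, 11.005 and 10.94 in Ptch+/-, 10.51, 11.21, 11.01 and 11.33 in NdpKO and 11.29, 11.18, 11.30 and 11.55 in compound mutant GNPs. All mutant GNP arrays lay below all 4 wild-type arrays, with the Ptch+/- arrays lowest on average. In Ptch+/- GNPs Mt1 was 1.90-fold lower, a log2 difference of -0.93 ± 0.17 (SE, adjusted p = 0.0286), subject to the loss of the call described for Sox9. Mt3 was measured at 8.69, 7.84, 8.39 and 7.998 in wild-type, 7.23, 7.39, 7.47 and 7.37 in Ptch+/-, 6.39, 7.16, 6.98 and 7.90 in NdpKO and 6.91, 7.76, 7.91 and 8.06 in compound mutant GNPs. The Ptch+/- arrays were close together and below wild type, but the difference of -0.86 ± 0.31 (SE, adjusted p = 0.227) was not called, and the other genotypes spread more widely. The Mt2 probe read between 4.11 and 4.17 on all arrays.

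The 3 metallothionein genes lie close together on chromosome 8, and their promoters are shown because Mt1 was called and the mean of its neighbour Mt3 was lower without a call. The windows run from 250 bases before to 50 after the RefSeq start on the plus strand of GRCm38.p6, at chr8:94178839-94179138 for Mt1, chr8:94172368-94172667 for Mt2 and chr8:94152357-94152656 for Mt3. Capitals mark the core of the metal response element, TGCACNC or TGCGCNC, on either strand.
Mt1: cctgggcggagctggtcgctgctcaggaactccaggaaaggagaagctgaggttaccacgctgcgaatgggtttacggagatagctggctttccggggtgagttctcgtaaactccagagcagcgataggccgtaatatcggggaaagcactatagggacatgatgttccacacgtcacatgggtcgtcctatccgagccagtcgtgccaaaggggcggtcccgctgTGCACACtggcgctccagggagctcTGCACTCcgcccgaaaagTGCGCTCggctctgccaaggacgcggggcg
Mt2: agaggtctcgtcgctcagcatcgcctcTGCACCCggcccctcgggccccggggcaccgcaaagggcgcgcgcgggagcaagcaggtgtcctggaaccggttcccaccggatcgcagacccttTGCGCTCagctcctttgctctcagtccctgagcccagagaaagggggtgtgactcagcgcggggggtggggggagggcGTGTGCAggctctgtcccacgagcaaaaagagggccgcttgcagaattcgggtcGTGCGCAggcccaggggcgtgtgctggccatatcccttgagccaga
Mt3: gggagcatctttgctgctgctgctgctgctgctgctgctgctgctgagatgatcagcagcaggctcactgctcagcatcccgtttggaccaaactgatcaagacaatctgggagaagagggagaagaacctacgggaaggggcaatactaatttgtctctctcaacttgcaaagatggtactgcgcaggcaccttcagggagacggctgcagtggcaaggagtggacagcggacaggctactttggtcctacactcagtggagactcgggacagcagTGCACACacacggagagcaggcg

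The core occurred 3 times in the Mt1 window, 4 times in that of Mt2 and 1 time in that of Mt3. Of all 32851 windows in the table, 12.6% held the first form and 15.4% the second, 25.7% held either, and 1.97% held 3 or more cores. Among 36 windows of 28 listed genes, 11 held either form, and only those of Mt1 and Mt2 held 3 or more. The SOX motif ACAATGG was in 0 of the 36 windows and in 3.66% of all, the GLI consensus GACCACCCA in 0 and 0.253%, and the heat shock element GAANNTTC in 2 (Slc1a3 and Ptprz1) and 7.86%. These are letter matches in short windows.

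**Figure D3:**
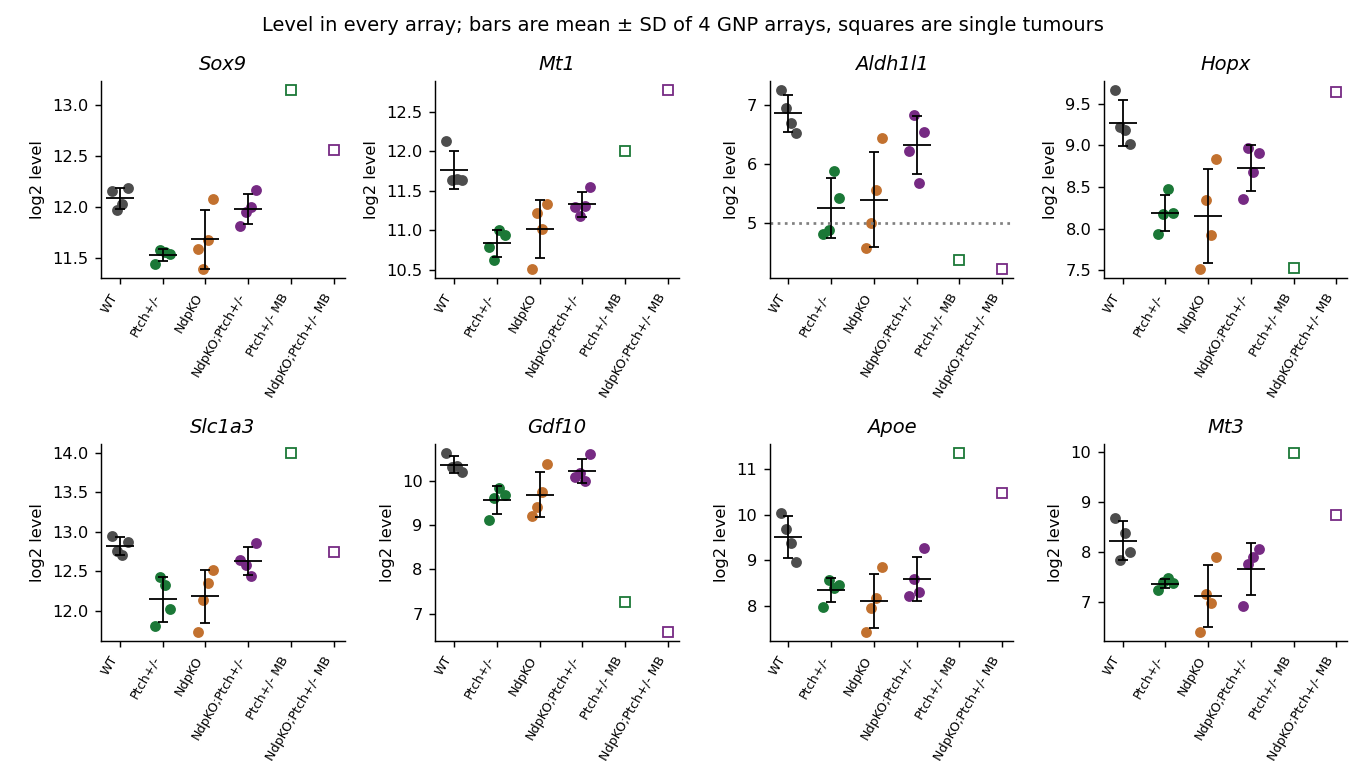
Log2 level of Sox9, Mt1, Aldh1l1, Hopx, Slc1a3, Gdf10, Apoe and Mt3 in every array, by genotype, each panel with its own axis. Filled circles are GNP arrays with the mean ± SD of 4, open squares stand for 1 tumour each and a dotted line marks level 5 in the Aldh1l1 panel; replicate 4 is the highest NdpKO point for all 8 genes.

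The NdpKO GNPs carry the loss of Ndp without that of Ptch, and their values are those listed above. Relative to wild type, differences were negative for 26 of the 32 genes, against 48.3% of all probes. The test in limma called 0 genes, where 0.307% of all probes were called in either direction, and at an unadjusted p below 0.05, 16 genes were lower. The lowest differences were -1.46 ± 0.38 for Aldh1l1, -1.40 ± 0.32 for Apoe, -1.12 ± 0.31 for Mt3 and -1.12 ± 0.25 for Hopx (SE, adjusted p = 0.151, 0.0980, 0.168 and 0.0926). Of the 22 genes with a mean of 5 or more, 1 had a positive difference, Slc4a4 at 0.23 ± 0.15 (SE, adjusted p = 0.650), followed by Gja1 at -0.05 ± 0.09 and Gjb6 at -0.16 ± 0.44 (SE). All 4 NdpKO arrays lay below all wild-type arrays for 7 genes (Aldh1l1, Apoe, Hopx, Mt1, Ndrg2, Slc1a3 and Fabp7, the last within background), as they did for 2.57% of all probes and 4.54% of those with a mean of 5 or more. This comparison turned on NdpKO replicate 4. Without that array 8 genes were called, all lower: Aldh1l1, Apoe, Hopx, Sox9, Aqp4, Aldoc, Mt1 and Mt3. Without any other single array of these genotypes 0 were called.

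The compound mutants were set against wild type in the same way. Differences from wild type were negative for 28 of 32 genes, against 49.1% of all probes. The test called 0 genes, with 0.0508% of all probes called, and at an unadjusted p below 0.05, 6 genes were lower and 2 higher. The 4 NdpKO;Ptch+/- arrays lay below all wild-type arrays for 4 genes, Ptprz1, Aqp4, Hopx and Mt1, against 1.80% of all probes. For Ptprz1 the levels were 5.39, 4.93, 6.46 and 5.79 in wild-type, 4.97, 4.60, 4.56 and 4.84 in Ptch+/-, 4.36, 5.48, 4.48 and 4.65 in NdpKO and 4.53, 4.53, 4.48 and 4.43 in compound mutant GNPs, so that 3 of the 4 wild-type arrays stood above level 5 and 1 of the 12 mutant arrays did. The difference was at least 1.56-fold (adjusted p = 0.312). For Aldh1l1 the difference of -0.54 ± 0.38 and for Sox9 that of -0.10 ± 0.12 (SE) were nearer to 0 than in either single mutant. Slc4a4 had the highest difference, 0.46 ± 0.15 (SE, adjusted p = 0.494).

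**Figure D4:**
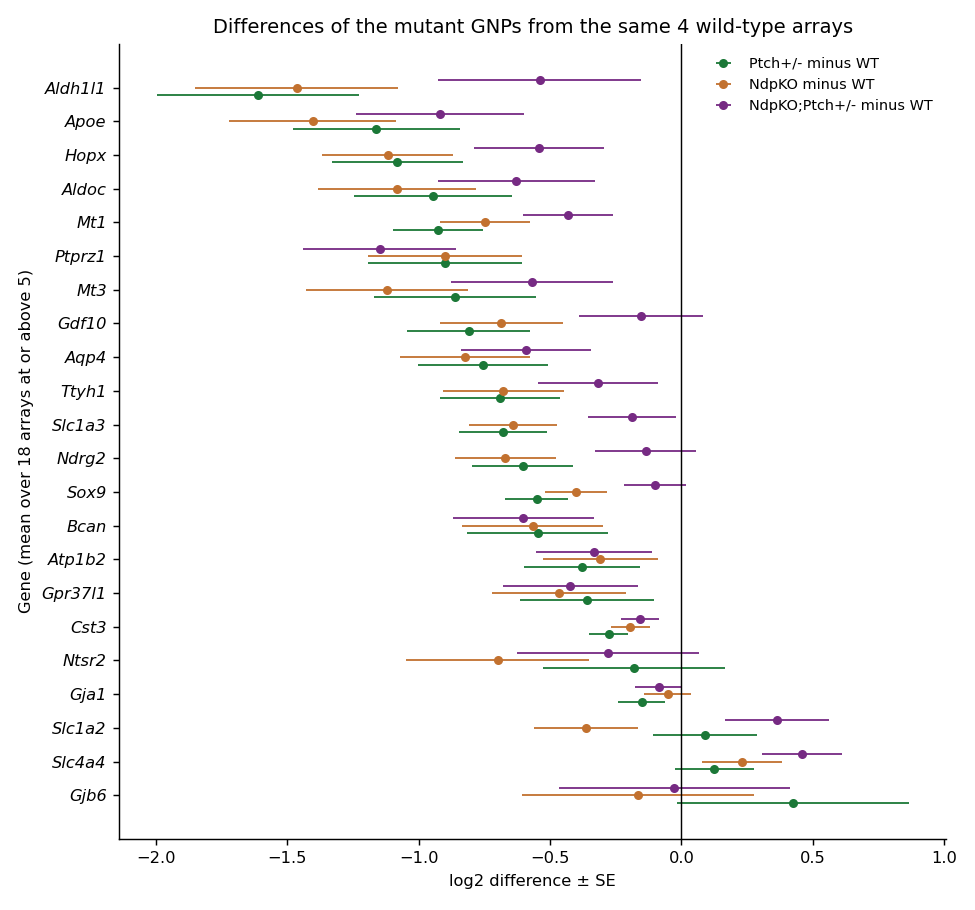
Log2 difference ± SE of Ptch+/-, NdpKO and NdpKO;Ptch+/- GNPs from wild-type GNPs for the 22 genes with a mean of 5 or more, ordered by the Ptch+/- difference. The 3 estimates of a gene share the same 4 wild-type arrays; for genes such as Aldh1l1, Gdf10, Slc1a3, Ndrg2 and Sox9 the compound mutant lies nearer to 0 than both single mutants, and for Ptprz1 and Bcan it does not.

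The question whether Ndp loss changed these genes once Ptch was heterozygous rests on the compound mutants and the Ptch+/- GNPs. The median difference was 0.09, with 24 of 32 genes higher. The test called 0 genes, where 0.0155% of all probes were called, and 8 genes were higher and 0 lower at an unadjusted p below 0.05. Aldh1l1 differed by 1.07 ± 0.38, Gdf10 by 0.66 ± 0.23 and Mt1 by 0.49 ± 0.17 (SE, adjusted p = 0.440, 0.440 and 0.422). Every compound mutant array lay above every Ptch+/- array for Sox9, Slc1a3, Mt1, Gdf10 and Sparcl1, the last within background, or 5 genes against 2.30% of all probes, and below every Ptch+/- array for Ptprz1 and Mlc1, both within background. Sox9 differed by 0.45 ± 0.12 (SE, adjusted p = 0.297). Against NdpKO GNPs the median difference was 0.16, 0 genes were called, with 0.00442% of all probes called, and 7 were higher at an unadjusted p below 0.05. The arrays did not overlap for 1 gene, Slc1a2, at 0.73 ± 0.20 (SE, adjusted p = 0.873), against 1.16% of probes that were higher without overlap. For both comparisons and for that of the compound mutant with wild type, 0 genes were called under every alternative run.

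The interaction asked whether loss of Ndp and of 1 Ptch copy added up: it is the Ndp difference in Ptch+/- GNPs less that in GNPs with both Ptch copies, so a positive value means that the compound mutant lay above the sum of the single effects. It was positive for 28 of 32 genes, with a median of 0.55, where 51.8% of all probes were negative. It was also positive for 12 of 12 endothelial genes, with a median of 1.04, for 6 of 7 genes of Purkinje and GABAergic neurons, with a median of 0.80, and for 10 of 12 of microglia and leukocytes, with a median of 0.12. Of 35 further genes of astrocytes and radial glia 26 were positive, with a median of 0.50, and 2 were called positive, Tnc and Sox21. The granule neuron lineage went the other way, with 8 of 13 genes negative and a median of -0.33. In that list 4 genes were called, all negative: Zic2, Zic4, Nfia and Cntn2. The part of the other cell types in the glial values was not tested. Of the 32 genes the test called 2, again Sox9 at 0.85 ± 0.17 and Mt1 at 1.24 ± 0.24 (SE, adjusted p = 0.0481 and 0.0476), both positive. Over all probes 0.495% were called in either direction and 0.221% positive, and at an unadjusted p below 0.05, 17 genes were positive. The second Sox9 probe gave 0.92 (adjusted p = 0.0449). Below the threshold, Aldh1l1 gave 2.53 ± 0.54, Hopx 1.66 ± 0.35 and Slc1a3 1.13 ± 0.24 (SE, adjusted p = 0.0633, 0.0628 and 0.0601). Since wild type enters all these differences, the interaction and the single-mutant differences are not independent. Without NdpKO replicate 4 the test called 10 genes and without NdpKO;Ptch+/- replicate 1 it called 6, whereas without any 1 of the other 14 GNP arrays it called 0. It also called 0 when the array whose title and genotype label disagree was counted as NdpKO.

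Other glial genes and other cell types were counted in the same fits. Of the 35 measured further genes of astrocytes and radial glia, 30 had a negative difference in Ptch+/- GNPs, with a median of -0.42. Among them 4 were called, all lower, where 1.09% of all probes were called in either direction. These were the intermediate filament gene Vim, the matrix gene Tnc, the endothelin receptor gene Ednrb and the transcription factor gene Sox21. In NdpKO GNPs 2 were called lower, Sox21 and Gfap, where 0.307% of all probes were called in either direction. Gfap, for the filament protein that classically marks astrocytes, was measured at 10.65, 10.01, 9.21 and 9.21 in wild-type, 8.36, 8.51, 8.60 and 8.97 in Ptch+/-, 6.50, 7.89, 7.60 and 8.44 in NdpKO and 8.20, 7.90, 7.31 and 8.19 in compound mutant GNPs. Wild type lay above every mutant array, and NdpKO differed from it by -2.16 (adjusted p = 0.0499). Its difference from wild type was -1.16 in Ptch+/- and -1.87 in compound mutant GNPs (adjusted p = 0.212 and 0.186), so that, unlike for Sox9 and Aldh1l1, the compound mutant mean lay below the Ptch+/- mean.

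Of 13 genes of the granule neuron lineage 9 were positive and 4 negative in Ptch+/- GNPs, with a median of 0.19. In this list 4 were called, all higher, where 1.09% of all probes were called in either direction. They were Zic2, Zic4, Nfia and Cntn2. Of 12 endothelial genes 11 were negative in Ptch+/- GNPs, with a median of -0.66, and 11 in NdpKO GNPs, with a median of -0.71. Of these 0 were called in each by limma, and 1 and 3 were lower at an unadjusted p below 0.05. Of 12 genes of microglia and leukocytes 11 and 10 were negative, with 0 called and 6 and 6 lower at an unadjusted p below 0.05, and their summed intensity ranged from 1061 to 1792 in wild-type, 638 to 1073 in Ptch+/-, 535 to 849 in NdpKO and 637 to 1031 in compound mutant GNPs. Their probes for C1qa, Cx3cr1 and Tyrobp had means near background in every GNP genotype, while C1qb and Laptm5 did not. For the oligodendrocyte lineage 1 of 10 genes, Pdgfra, was called lower in Ptch+/- GNPs, and for Purkinje and GABAergic neurons 0 of 7, with 6 negative, a median of -0.60 and 2 lower at an unadjusted p below 0.05. Genes of Purkinje and GABAergic neurons were negative for 5 of 7 in NdpKO GNPs. Most endothelial, microglial, Purkinje and GABAergic genes thus had differences of the same sign as the glial genes in these genotypes, and their part in the glial differences was not tested.

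Tumours and GNPs of the genotypes Ptch+/- and NdpKO;Ptch+/- were compared over 2 tumours, 1 of each genotype, and 8 GNP arrays, with genotype as a covariate. Of the 32 genes 17 were called, 14 higher and 3 lower, where 14.7% of all probes were called, 8.61% higher and 6.06% lower. The median over the list was 0.11. The higher genes came from all 6 functions, and among them was S100b, at 4.21 in the Ptch+/- and 4.15 in the NdpKO;Ptch+/- tumour and between 4.11 and 4.13 on the GNP arrays, a difference of 0.06 entirely within background. Left out in turn, the Ptch+/- tumour reduced the count to 9 and the NdpKO;Ptch+/- tumour raised it to 19, and without 1 of the 8 GNP arrays it was 12 to 16. Apoe, Sox9, Gja1, Atp1b2, Mt1, Gdf10 and Ptprz1 were called under every alternative run, and each of the other genes lost its call under at least 1. Genes of other cell types differed as well: 10 of 12 genes of microglia and leukocytes were called higher, with summed intensities of 8824 and 4279 in the tumours, and 4 of 12 endothelial and 3 of 7 Purkinje and GABAergic genes were called lower. Of 10 genes of the oligodendrocyte lineage 5 were called lower and 3 higher, Olig1, Pdgfra and Cspg4. A tumour is dissected tissue whereas the GNPs were purified, so tissue and preparation cannot be told apart.

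Ptprz1 and Slc6a11 were near background in the GNPs of these genotypes and measured in the tumours. Ptprz1 was measured at 8.52 in the Ptch+/- and 6.53 in the NdpKO;Ptch+/- tumour, a rise of at least 5.74-fold (adjusted p = 0.000754). Slc6a11, which encodes the GABA transporter GAT-3, was measured at 8.33 in the Ptch+/- and 5.01 in the NdpKO;Ptch+/- tumour, and lay between 4.16 and 4.32 on all GNP arrays. It rose at least 3.17-fold (adjusted p = 0.0307), and the rise came mostly from the Ptch+/- tumour, since the other was at the limit of background.

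Apoe was measured at 11.35 in the Ptch+/- and 10.47 in the NdpKO;Ptch+/- tumour, both above all GNP arrays, and was 5.42-fold higher (adjusted p = 0.00209). Sox9 was measured at 13.14 in the Ptch+/- and 12.56 in the NdpKO;Ptch+/- tumour and was 2.13-fold higher (adjusted p = 0.00884). Mt1 was measured at 11.996 in the Ptch+/- and 12.77 in the NdpKO;Ptch+/- tumour, a rise of 2.46-fold over the GNPs of these genotypes (adjusted p = 0.000311). Sox9 and Mt1, the genes called lower in Ptch+/- GNPs, were thus called higher in the tumours. The same Ptch+/- arrays are part of the reference for the tumours, so these results are not independent. For Mt1 the Ptch+/- tumour lay below wild-type replicate 1, at 12.13. Mt3 was measured at 9.99 in the Ptch+/- and 8.74 in the NdpKO;Ptch+/- tumour, 3.61-fold higher (adjusted p = 0.0147).

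Slc1a2, at 8.22 in the Ptch+/- and 6.81 in the NdpKO;Ptch+/- tumour, was 3.01-fold higher (adjusted p = 0.0214). Ndrg2, at 10.65 in the Ptch+/- and 9.09 in the NdpKO;Ptch+/- tumour, was 3.25-fold higher (adjusted p = 0.0295), and among the GNPs it was measured at 8.96, 8.48, 8.45 and 8.27 in wild-type, 7.48, 8.30, 8.11 and 7.86 in Ptch+/-, 7.55, 7.80, 8.25 and 7.88 in NdpKO and 8.46, 8.50, 8.22 and 8.43 in compound mutant GNPs. Atp1b2, at 9.93 in the Ptch+/- and 8.87 in the NdpKO;Ptch+/- tumour, rose 3.87-fold (adjusted p = 0.00294). In each of these the Ptch+/- tumour was the higher. The same order held for Bcan, at 9.03 in the Ptch+/- and 8.17 in the NdpKO;Ptch+/- tumour (2.47-fold, adjusted p = 0.0184), and for Slc4a4, at 9.03 in the Ptch+/- and 8.63 in the NdpKO;Ptch+/- tumour (2.02-fold, adjusted p = 0.00867). Cst3, at 13.10 in the Ptch+/- and 12.11 in the NdpKO;Ptch+/- tumour, rose 1.76-fold (adjusted p = 0.0391), with the second tumour just above the 8 GNP arrays of these genotypes and below wild-type replicate 2. Gpr37l1 was measured at 8.16, 7.83, 7.47 and 6.92 in wild-type, 7.03, 7.30, 7.11 and 7.51 in Ptch+/-, 6.78, 7.17, 7.13 and 7.45 in NdpKO and 7.01, 7.49, 6.71 and 7.49 in compound mutant GNPs. Its tumour levels were 9.15 in the Ptch+/- and 7.73 in the NdpKO;Ptch+/- tumour, a rise of 2.35-fold (adjusted p = 0.0437). The NdpKO;Ptch+/- tumour lay below wild-type replicates 1 and 2 for Gpr37l1, and below wild-type replicate 1, at 8.50, for Bcan.

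Both tumours lay below all 8 GNP arrays for the 3 genes called lower. Gdf10, the Bergmann glia growth factor gene, was measured at 7.27 in the Ptch+/- and 6.58 in the NdpKO;Ptch+/- tumour and was 7.78-fold lower (adjusted p = 0.000560), the largest fall of the list. Gja1, at 9.34 in the Ptch+/- and 8.78 in the NdpKO;Ptch+/- tumour, was 3.83-fold lower (adjusted p = 8.11e-05). Aqp4, at 9.19 in the Ptch+/- and 9.17 in the NdpKO;Ptch+/- tumour, was 1.34-fold lower (adjusted p = 0.0443). The Aqp4 call was lost without either tumour, without 6 of the 8 GNP arrays (Ptch+/- replicates 2, 3 and 4 and NdpKO;Ptch+/- replicates 2, 3 and 4), with cyclic loess, with the mean of its probes and with the other label of 1 array, whereas Gja1 and Gdf10 were called in all of these. The astrocyte marker Aldh1l1 was within background in both tumours, at 4.37 and 4.21, at least 1.72-fold lower without passing the threshold (adjusted p = 0.0509). Of the 35 further genes of astrocytes and radial glia 6 were called higher in the tumours and 8 lower. Gfap was among the higher, at 9.91 and 10.28, with the filament gene Nes, and Vim, the transcription factor genes Sox2 and Hes1, and Ednrb were among the lower. Both Gfap levels lay within the range of the wild-type GNPs, 9.21 to 10.65, which are not part of this comparison. Both lists thus held calls in both directions.

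**Figure D5:**
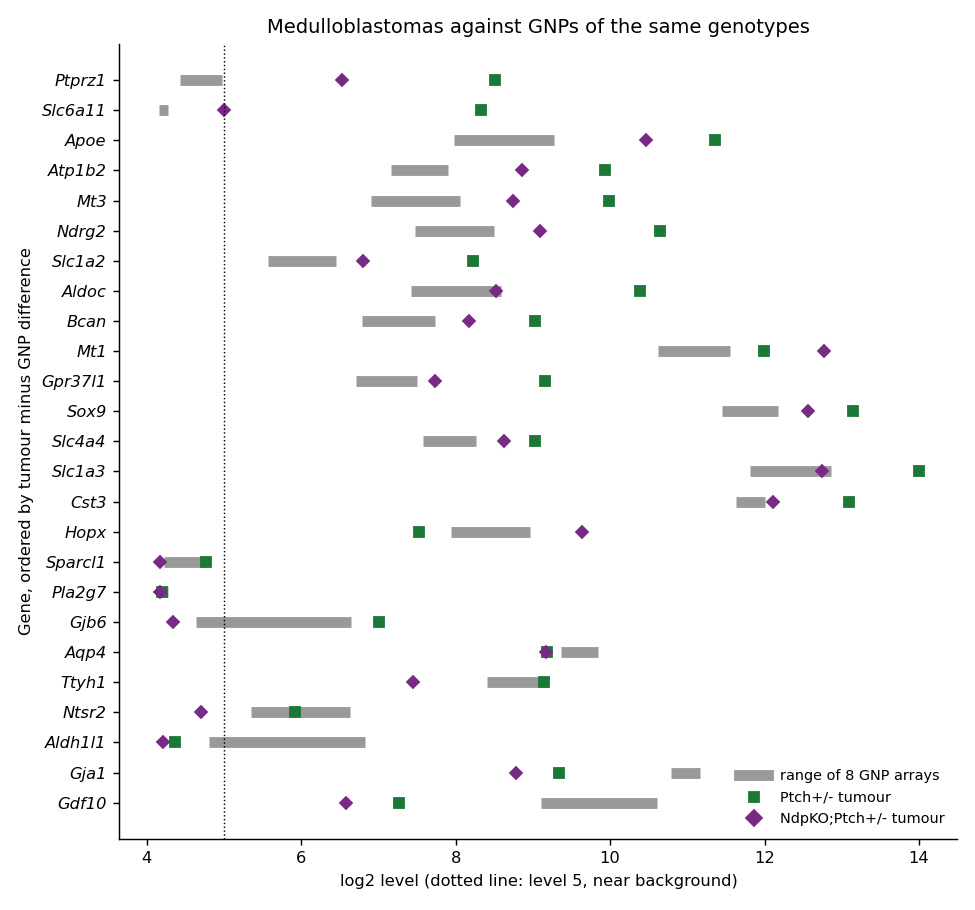
Log2 level of the 25 genes that reached level 5 on at least 1 array, in the Ptch+/- tumour (square) and the NdpKO;Ptch+/- tumour (diamond), with the range of the 8 GNP arrays of these genotypes as a grey bar. Genes are ordered by the difference of tumours and GNPs, from Gdf10 at the bottom to Ptprz1 at the top, and the dotted line is level 5.

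The tumours were also set against each other, with 1 of each genotype and hence no test. The NdpKO;Ptch+/- tumour was lower for 28 of the 32 genes, with a median difference of -0.64, while the median of all probes was 0.00. It was lower by 1 or more on the log2 scale, a change of 2-fold, for 12 genes, as it was for 1.79% of all probes, and higher by 1 or more for 1 gene, against 1.73% of all probes. The largest fall between levels of 5 or more was in Slc6a11 (-3.32), followed by Ptprz1 (-1.99), Aldoc (-1.87) and Ttyh1 (-1.70), and Gjb6, under level 5 in the NdpKO;Ptch+/- tumour, was at least 4.02-fold lower there. Slc1a3 was measured at 14.004 in the Ptch+/- and 12.74 in the NdpKO;Ptch+/- tumour, Aldoc at 10.39 in the Ptch+/- and 8.52 in the NdpKO;Ptch+/- tumour and Gjb6 at 7.01 in the Ptch+/- and 4.34 in the NdpKO;Ptch+/- tumour. Hopx went the other way, at 7.53 in the Ptch+/- and 9.64 in the NdpKO;Ptch+/- tumour, 4.31-fold higher, so that this Bergmann glia marker lay below all 8 GNP arrays in 1 tumour and above them in the other. Mt1 was also higher in the NdpKO;Ptch+/- tumour, by 0.78. The summed intensity of the glial list was 51001 and 30982 in these tumours, and that of microglia and leukocytes, 8824 and 4279, had the same order.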

How the data were processed

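Total RNA of 16 GNP preparations and 2 MBs was hybridised by the authors to Illumina MouseWG-6 v2 BeadChips, and the deposited log2 values are their intensities after background correction, quantile normalization and log transformation with neqc of limma. Quantile normalization gives every array the same distribution, so a shift of all genes cannot be seen. Depth does not apply to arrays, and their number limits the precision. Of 45281 probes, 34885 had 1 symbol in the platform annotation, 18 several and 10378 none. Each gene was represented by its probe with the highest mean over 18 arrays; the listed genes had 51 probes, and 12 genes had several.

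Samples were grouped by title. For 1 array (NdpKO;Ptch+/- replicate 2) the genotype label says NdpKO, and both groupings were run. For the GNPs, limma 3.58.1 (R 4.3.3) was run on all 16 arrays with genotype means, linear contrasts and its moderated variance (eBayes, defaults), and for the tumours a second model held tissue and genotype over 2 MBs and 8 GNP arrays. Tests were two-sided, adjusted over all probes by Benjamini-Hochberg and called below 0.05. The study describes the 4 GNP samples of a genotype as 4 animals, which the sample labels do not state. Differences are given as log2 with SE; fold changes are 2 to that power, and against a group mean under level 5 that level was used, giving a bound ("at least"). Alternatives were a filter on dim probes, a trended robust prior, cyclic loess, the mean of a gene's probes, the compared groups alone, the other label, a replicate block and leaving out each array. The procedure was tested on simulated data in which each probe varied independently, so shifts shared by many genes of an array were not covered.

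The genes and lists, and level 5, were chosen with earlier results of these data known. All 32 measured genes are counted; values in every array are given for genes called in any comparison, for the 3 highest and 3 lowest differences in Ptch+/-, NdpKO and tumours among genes with a mean of 5 or more, and for Sox9, Aldh1l1, Slc1a3, Slc1a2, Fabp7, Gdf10, Hopx, Aqp4, Apoe, Mt1, Mt2 and Mt3; genes under level 5 on every GNP array are given there as a range. Promoter sequences are from RefSeq (GRCm38.p6). For the listed genes, windows on chromosome 18 were not used, and Sox9 had no window. The shares over all windows were taken without this filter.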

Additional observations from a re-analysis of the deposited data

Results flagged for a closer look

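In 4 of 88 groups of 4 GNP arrays, 1 array stood apart from the other 3 by Dixon's criterion, where chance marks about 1 in 20 groups. These were wild-type replicate 1 for Gja1, at 11.37, and for Mt1, at 12.13, both above the rest, wild-type replicate 3 for Gjb6, at 4.83, and Ptch+/- replicate 1 for Ntsr2, at 5.35, both below. Wild-type replicate 1 was the highest of its group for 21 of the 32 genes, against 24.9% of all probes. Without that array neither Sox9 nor Mt1 was called in Ptch+/- GNPs, and the same held without wild-type replicate 2 or 3 or any single Ptch+/- array.

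The Ndp difference itself differed between GNPs with 1 and with both Ptch copies, by the interaction term of limma, for Sox9 (0.85) and Mt1 (1.24). Both are positive, and both calls are lost without any 1 of 14 of the 16 GNP arrays.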

How the results depend on the processing

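None of the medians, and none of the single-gene values counted below, changed sign under an alternative. Some other genes did. In Ptch+/- GNPs the number of negative differences went from 25 to 28 of 32 without Ptch+/- replicate 3. In the tumours it went from 8 to 10 with cyclic loess. Of 837 values of single genes, 694 stayed on the same side of the threshold, 50 passed it newly and 93 lost it. Testing only probes with a mean of 5 or more called 10 genes in Ptch+/-, 7 in NdpKO and 11 in the interaction, with medians of -0.60 and -0.67 from wild type, 0.29 for the compound mutant against Ptch+/-, 0.36 against NdpKO, 0.99 for the interaction and 1.05 for the tumours. In this run fewer probes were tested and genes near background left the list. The trended robust prior called 6, 3 and 7. The mean of a gene's probes called 1 gene in NdpKO (Sox9) and 5 in the interaction, whose median became 0.35. Cyclic loess called 0 in the interaction. With the array of disagreeing label as NdpKO, 1 gene was called in Ptch+/- (Mt1) and 0 in the interaction, with a median of 0.37. The causes of these changes were not tested. Leaving out 1 array at a time gave 0 to 1 genes in Ptch+/-, 0 to 8 in NdpKO, 0 to 10 in the interaction (median 0.39 to 0.66) and 9 to 19 in the tumours (median 0.067 to 0.75), and 0 for the other comparisons. For the tumours the model without 1 tumour assumes that the other varies like the GNPs.

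The replicate numbers do not pair the samples: over 24 pairs of arrays with the same number in different genotypes, deviations from the group means correlated at a median of -0.04 (range -0.35 to 0.48), and 4 of 16 arrays correlated best with their own number. With a replicate block 1 gene (Sox9) was called in Ptch+/- GNPs and 0 in the interaction. Levels near background bound what can be seen for the 7 genes under level 5 on every array.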
